A study of Mus musculus with 6 samples.

Results

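The genes described here encode proteins of the PI3K and mTOR growth pathway and of autophagy, and were picked by symbol with a rule that uses no measured value, although the set was proposed with results of these data known. Of 55 genes named, 54 matched a symbol in the table of 11162 genes, and Wipi1 was not analysed here. They were divided by the known role of their products into 20 genes of growth signalling, 12 genes of brakes on that signalling and 22 genes of autophagy and the lysosome. RNA had been sequenced from naive CD8 T cells of the mouse spleen, in 3 GFP-hi and 3 GFP-lo libraries. All cells carried the transgene Tg(Nr4a1-EGFP)GY139Gsat, in which regulatory sequence of Nr4a1 drives green fluorescent protein, together with the OT-I T-cell receptor. Both groups were sorted as CD8+, CD44lo, CD62Lhi and Qa2hi and differed in the brightness of Nur77-GFP. The reporter is switched on by signals from the T-cell receptor, and the comparison asks how transcripts differ between naive cells with more and with less of it. Age, sex, the number of animals and whether animals were pooled are not given in the labels, so p-values measure the spread between these libraries, which may be in part technical.

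PI3 kinases make a membrane lipid that recruits the kinases PDK1 and AKT. AKT inhibits the TSC complex, which frees the small GTPase RHEB to activate mTOR complex 1 on the lysosome, where RAG GTPases have brought it in response to amino acids. Active mTOR complex 1 drives protein synthesis and holds autophagy back by phosphorylating the ULK kinases and the transcription factors TFEB and TFE3. Autophagy encloses cytoplasm in a membrane that carries lipid-bound LC3 and GABARAP proteins and delivers it to lysosomes. In naive T cells low mTOR activity accompanies quiescence, and autophagy supports survival.

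Values are RPKM, reads per kilobase of gene, scaled to library size, so levels may be compared between genes as well as between libraries. Depth recovered from the step that a single read makes in low values was 26160000 to 35950000 reads per library. A gene of 1 kilobase at 1 RPKM thus rested on about 26.2 to 36.0 reads, PCR copies included. Pearson's r between libraries was 0.980 to 0.996 over the genes tested (a value across genes, not across replicates). Replicate 2 of each group stood apart by its heat-shock genes, with Hspa1a at 1100 and 1234 RPKM against at most 235 RPKM elsewhere. GFP-hi replicate 2 and GFP-lo replicate 1 stood apart by a low median of 41 nasal receptor genes, 0.037 and 0.038 RPKM against 0.263 to 0.583 RPKM. Both were also deeper than every other library. Of 13 naive CD8 T cell markers 12 were listed, with a summed level of 2832 to 3040 RPKM in GFP-hi and 2949 to 3175 RPKM in GFP-lo libraries. Of B cell markers 3 of 9 were listed (12.6 to 14.2 against 11.01 to 11.4 RPKM summed), of myeloid markers 2 of 11 (18.8 to 24.6 against 18.8 to 20.97 RPKM) and of erythroid markers 1 of 6. Of CD4 T cell markers 2 of 5 were listed, Cd40lg and Izumo1r, and they went opposite ways: Cd40lg fell in GFP-hi (17.8 ± 4.41 against 39.7 ± 6.20 RPKM) and Izumo1r rose (3.40 ± 0.364 against 0.959 ± 0.149 RPKM; SD, n = 3 each). Their sum was 17.2 to 26.2 RPKM in GFP-hi and 36.2 to 47.8 RPKM in GFP-lo. Of thymocyte markers 5 of 7 were listed (70.1 to 77.2 against 65.1 to 70.7 RPKM summed). Of the 4 tested, Ccr9 rose (18.1 ± 1.96 against 10.97 ± 1.204 RPKM, SD, n = 3 each), Dntt and Themis were lower without overlap and did not pass the threshold, and Cd1d1 overlapped. No NK cell marker was analysed. None of the listed markers was at 0 in any library, the lowest value being 0.021 RPKM. Whether such cells had a part in the results below was not tested.

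The pathway was largely at the same level in both groups. Genes with a mean of at least 1 RPKM were tested on log2(RPKM + 1) with limma, and 53 of the 54 genes passed that filter. Pik3r5, a PI3K regulatory subunit, was lower in GFP-hi cells and Lamp2, a protein of the lysosomal membrane, was higher, each with an adjusted p under 0.05. That is 2 of 53 genes (3.77%), beside 3.95% of all 9351 genes tested, of which 2.46% were higher and 1.49% lower. A further 7 genes had groups that did not overlap without passing the threshold. In all, 9 of the 53 genes (17.0%) had such groups, 6 higher and 3 lower in GFP-hi. The background was 26.9% of all genes tested, 17.1% higher and 9.84% lower, so the share among these genes was below that of the table. At an unadjusted p under 0.05 there were 7 higher and 3 lower genes (18.9%), beside 20.2% of all genes tested.

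**Figure D1:**
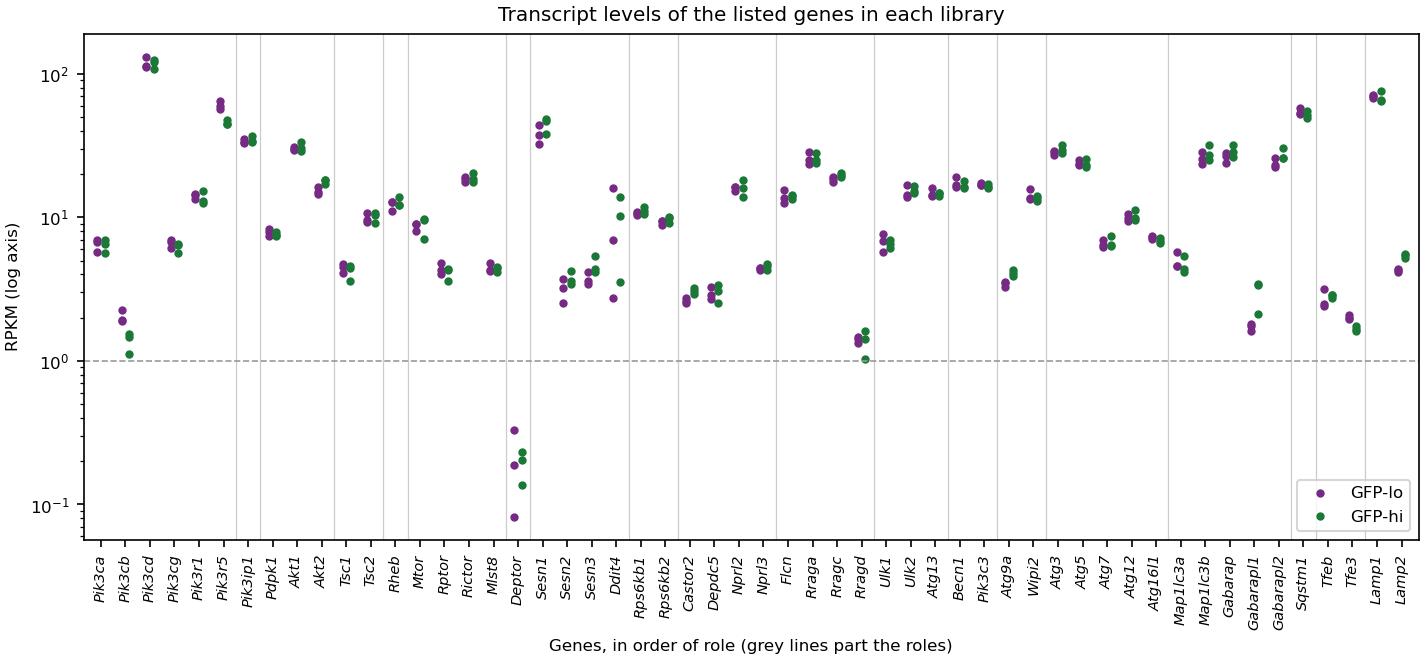
RPKM on a log axis of the 54 listed genes in each library, GFP-lo in purple and GFP-hi in green, in order of role; the dashed line marks 1 RPKM. Pik3cd is the most abundant at a mean of 118 RPKM, Deptor lies under 1 RPKM in every library, and for most genes the 2 groups cover the same range.

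On the RPKM + 1 scale, the 95% interval of the fold change lay within 1.5-fold in either direction for 51 of the 53 genes, and within 1.25-fold for 39 of them. The share of all genes tested within these bounds was not counted. The exceptions at 1.5-fold were Ddit4, whose interval on the log2 scale ran from -1.13 to 1.52, and Gabarapl1, whose interval ran from 0.23 to 0.84. All 20 tested growth genes lay within 1.5-fold, as did 10 of 11 tested brakes and 21 of 22 autophagy genes. The median within-group SD on the log2(RPKM + 1) scale was 0.103 for these genes and 0.0897 for all genes tested. All fold changes here and below are log2 differences of GFP-hi minus GFP-lo on that scale, where the added 1 shrinks the changes of scarce genes. With 0.1 added in its place, the fold change of the scarce gene Pik3cb was -0.54 rather than -0.35. The bounds thus do not hold for RPKM ratios of such genes.

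**Figure D2:**
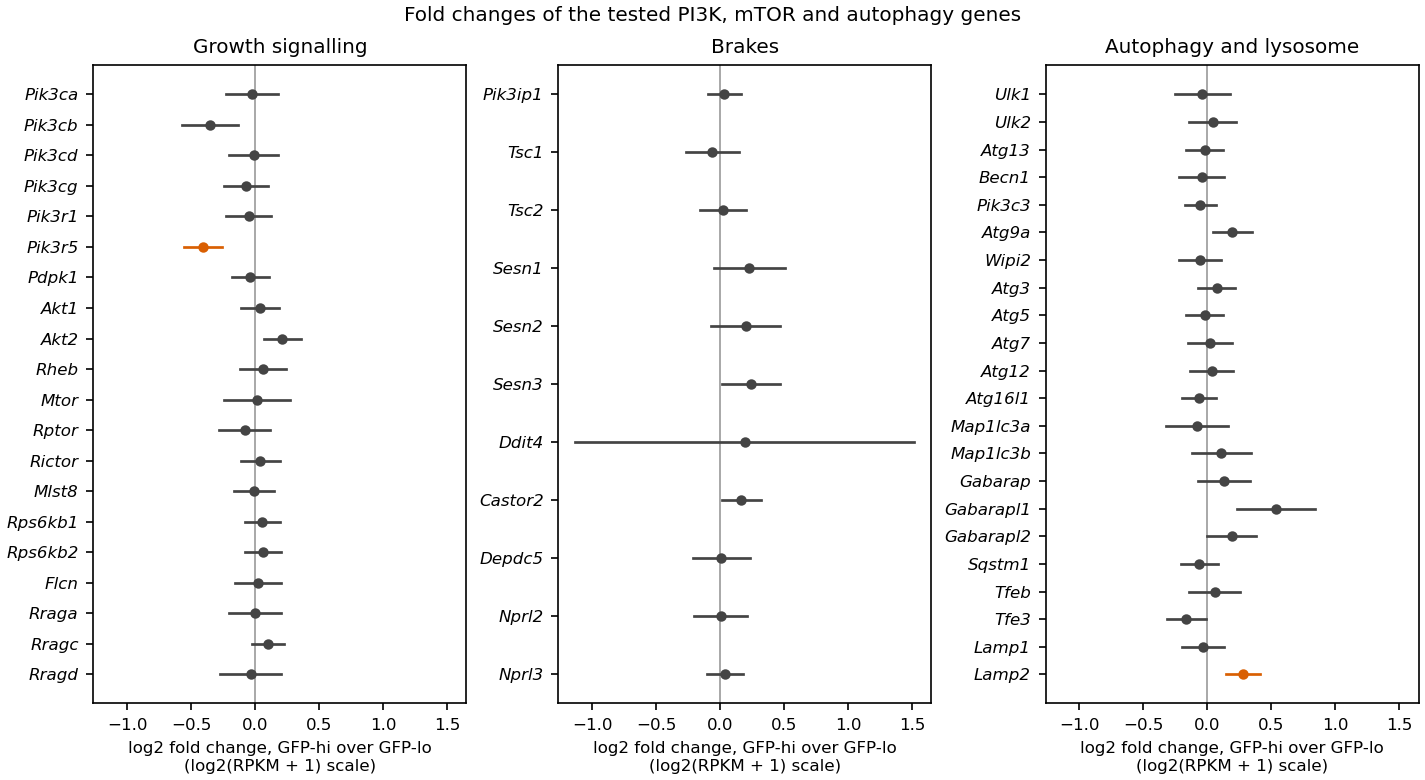
Log2 fold change (GFP-hi over GFP-lo, horizontal axis) of the 53 tested genes with 95% intervals from limma, in 3 groups by role; orange marks an adjusted p under 0.05. Pik3r5 (-0.41) and Lamp2 (0.28) are the 2 orange genes, and Ddit4 has the widest interval.

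PI3K subunits were the first step examined. Pik3cd, which encodes the leukocyte catalytic subunit p110 delta, was the most abundant gene of the whole set. It had 125, 108 and 119.9 RPKM in GFP-hi and 131, 111 and 113 RPKM in GFP-lo libraries. The groups overlapped throughout, and the fold change was -0.01 (95% interval -0.20 to 0.18, limma adjusted p = 0.96). The other catalytic genes were far lower, Pik3ca (p110 alpha) at a mean of 6.43 RPKM, Pik3cg (p110 gamma) at 6.37 RPKM and Pik3cb (p110 beta) at 1.70 RPKM. Pik3ca and Pik3cg did not differ in level beyond their spread. All 6 PI3K subunit genes had a negative fold change, with a median of -0.06, beside 0.02 for all genes tested, of which 55.5% were positive. The sign was not firm for Pik3ca, Pik3cd, Pik3cg and Pik3r1, each of which had a positive fold change in at least 1 alternative fit.

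Pik3r5 (Entrez 320207, chromosome 11, 68432125 to 68497849, GRCm38) encodes p101, the regulatory subunit that couples p110 gamma to G-protein-coupled receptors. It had 44.6, 44.4 and 47.4 RPKM in GFP-hi and 65.0, 56.7 and 60.1 RPKM in GFP-lo libraries. Every GFP-hi library lay below every GFP-lo library. GFP-hi averaged 45.5 ± 1.72 RPKM and GFP-lo 60.6 ± 4.18 RPKM (SD, n = 3 each). The fold change was -0.41 ± 0.064 (SE; limma adjusted p = 0.014), or 24.5% lower in GFP-hi on the RPKM + 1 scale. The call was lost without GFP-hi replicate 1 (limma adjusted p = 0.064), without GFP-lo replicate 3 (0.061) and in the 4 libraries with lower heat-shock genes (0.056), with fold changes of -0.39, -0.41 and -0.43. Calls over all genes tested also fell in these fits, from 369 to 153, 157 and 101.

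Its catalytic partner gene Pik3cg had 6.54, 5.64 and 6.40 RPKM in GFP-hi and 6.90, 6.07 and 6.69 RPKM in GFP-lo, with overlapping groups and a fold change of -0.07 (limma adjusted p = 0.65). The log2 ratio of Pik3r5 to Pik3cg within a library was 2.60, 2.77 and 2.71 in GFP-hi and 3.06, 3.03 and 2.99 in GFP-lo libraries. It was lower in all 3 GFP-hi libraries, by 0.33 on average, which restates the difference in Pik3r5 beside a level Pik3cg. An exact permutation over the 6 libraries gave p = 0.1, the smallest it can give here, so it cannot decide.

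Pik3cb, the gene of p110 beta, was low in both groups. It had 1.54, 1.11 and 1.46 RPKM in GFP-hi and 1.90, 1.92 and 2.25 RPKM in GFP-lo libraries. The groups did not overlap, but the fold change of -0.35 (standard error 0.095) did not pass the threshold (limma adjusted p = 0.084). It passed with quantile normalization (0.049) and with array quality weights (0.023). Pik3r1, which encodes the regulatory subunit p85 alpha, had a mean of 13.9 RPKM and a fold change of -0.05 with overlapping groups.

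Downstream kinases were flat, apart from a small difference in Akt2. Akt1 had 30.5, 28.9 and 33.4 RPKM in GFP-hi and 29.8, 29.5 and 30.9 RPKM in GFP-lo libraries, a fold change of 0.04 (95% interval -0.11 to 0.18). Akt2, the isoform best known for insulin signalling, had 18.2, 18.1 and 17.0 RPKM in GFP-hi and 16.2, 14.9 and 14.4 RPKM in GFP-lo libraries. Its groups did not overlap, and its fold change of 0.21 (standard error 0.062) missed the threshold (limma adjusted p = 0.11). Akt1 was the more abundant isoform in every library. Pdpk1, the gene of PDK1, had a mean of 7.74 RPKM and a fold change of -0.04.

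The mTOR complexes and their activator showed no gene past the threshold. Mtor, the kinase shared by both complexes, had 9.59, 7.10 and 9.78 RPKM in GFP-hi and 8.95, 8.04 and 8.99 RPKM in GFP-lo libraries. The lowest value of each group was that of its replicate 2, and the fold change was 0.01 (95% interval -0.24 to 0.27, limma adjusted p = 0.96). Rictor, the scaffold of complex 2, was the most abundant of the complex genes, with 18.4, 20.5 and 17.8 RPKM in GFP-hi and 17.5, 19.0 and 18.5 RPKM in GFP-lo libraries. Rptor, the scaffold of complex 1, had a mean of 4.23 RPKM, and Mlst8, a subunit of both complexes, 4.41 RPKM. These 2 genes were at a like level and below Rictor and Mtor. Fold changes of the complex genes ran from -0.08 to 0.04.

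Rheb, the direct activator of complex 1, had 12.2, 13.9 and 12.2 RPKM in GFP-hi and 11.02, 12.7 and 12.7 RPKM in GFP-lo libraries, a fold change of 0.06. Of its targets' kinases, Rps6kb1 had 11.02, 11.9 and 10.5 RPKM in GFP-hi against 10.5, 10.8 and 10.7 RPKM in GFP-lo, and Rps6kb2 had a mean of 9.48 RPKM. Both kinases, which phosphorylate ribosomal protein S6, had a fold change of 0.06 with overlapping groups.

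Genes of the lysosomal amino acid switch were also level. Rraga encodes a RAG GTPase and had 25.1, 28.3 and 24.0 RPKM in GFP-hi and 23.5, 25.2 and 28.7 RPKM in GFP-lo libraries. Its means, both 25.8 RPKM, could not be told apart. Rragc, the gene of its dimer partner, had 20.3, 19.7 and 19.2 RPKM in GFP-hi and 17.6, 18.4 and 19.0 RPKM in GFP-lo libraries. These groups did not overlap, by a narrow margin, and the fold change was 0.10 (95% interval -0.02 to 0.23, limma adjusted p = 0.35). Rragd was scarce at a mean of 1.38 RPKM. Flcn, whose product folliculin acts on RAGC and RAGD, had a mean of 13.9 RPKM. Both had overlapping groups, with fold changes of -0.03 and 0.02.

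Among the brakes no gene passed the threshold in limma, and 2 of 11 tested genes (18.2%) had an unadjusted p under 0.05, Sesn3 and Castor2, beside 20.2% of all genes tested. Of the 11 fold changes 10 were positive, beside 55.5% of all genes tested, with a median of 0.04 beside 0.02. The sign was not firm for Nprl2, Depdc5, Tsc2, Ddit4 and Pik3ip1, each of which had a negative fold change in at least 1 alternative fit. Tsc1, the gene with a negative fold change, had a positive one in at least 1 alternative fit. Sestrins restrain mTOR complex 1 by binding its upstream regulators when leucine is short or cells are stressed. Sesn1 was the most abundant, with 47.2, 48.1 and 38.3 RPKM in GFP-hi and 43.7, 37.5 and 32.6 RPKM in GFP-lo libraries. GFP-hi replicate 3 lay below GFP-lo replicate 1, so the groups overlapped.

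The 3 sestrin genes had like fold changes: 0.23 for Sesn1 (standard error 0.120, limma adjusted p = 0.34), 0.20 for Sesn2 (0.117, 0.40) and 0.24 for Sesn3 (0.098, 0.22). Sesn2 had a mean of 3.45 RPKM and Sesn3 of 4.18 RPKM, each about as low as the other and both far below Sesn1. In Sesn3 the highest GFP-lo library, at 4.16 RPKM, exceeded the lowest GFP-hi library, at 4.15 RPKM. Each of the 3 kept a positive fold change in all alternatives in which it was tested, and none passed the threshold in any.

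Ddit4 encodes REDD1, a stress-induced protein that activates the TSC complex, and varied more than any other gene of the set. It had 13.8, 3.56 and 10.3 RPKM in GFP-hi and 2.74, 16.002 and 6.97 RPKM in GFP-lo libraries. Its within-group SD of 0.995 on the log2 scale was above that of 99.9% of genes tested. High and low libraries occurred in both groups, and the fold change of 0.19 ± 0.576 (SE; limma adjusted p = 0.89) ran from -0.35 to 1.24 over the alternatives. The 2 libraries with the least Ddit4, GFP-hi replicate 2 and GFP-lo replicate 1, were those with the lowest nasal receptor level. They were also the deepest, at 33960000 and 35950000 reads against 26160000 to 29450000 reads elsewhere, so these 2 features cannot be told apart here. The heat-shock genes did not follow Ddit4, being high in the 2 libraries numbered 2, which held 3.56 and 16.002 RPKM of Ddit4. Whether nasal receptor reads or depth have a part in the spread of Ddit4 was not tested.

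**Figure D3:**
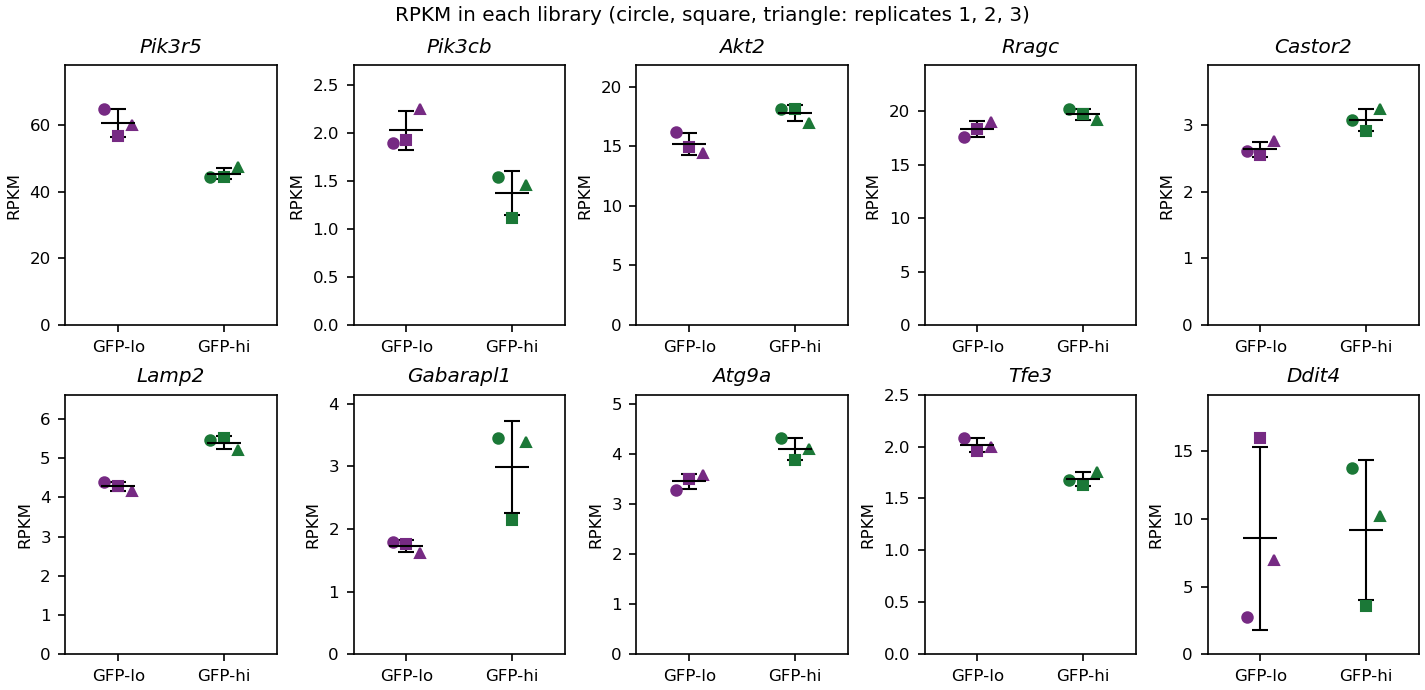
RPKM (vertical axis, from 0) in each library of the 9 genes whose groups did not overlap and of Ddit4; points are libraries, the black bar is the mean and the whiskers are 1 SD (n = 3). GFP-hi lies below GFP-lo for Pik3r5, Pik3cb and Tfe3 and above it for the other 6, while the Ddit4 libraries of both groups spread from 2.74 to 16.002 RPKM.

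Castor2, a paralog of the arginine sensor CASTOR1, had 3.07, 2.91 and 3.24 RPKM in GFP-hi and 2.60, 2.54 and 2.76 RPKM in GFP-lo libraries. All GFP-hi libraries were higher, and the fold change was 0.16 ± 0.066 (SE; limma adjusted p = 0.22). The GATOR1 complex turns RAGA off, and its genes Depdc5, Nprl2 and Nprl3 had fold changes from 0.00 to 0.04. Nprl2 was the most abundant of them, with 16.1, 18.1 and 13.9 RPKM in GFP-hi and 16.3, 16.2 and 15.2 RPKM in GFP-lo libraries, and its GFP-hi libraries enclosed the GFP-lo range.

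The TSC complex and the remaining brakes did not separate the groups. Tsc2, the GTPase-activating subunit, had 10.7, 9.12 and 10.4 RPKM in GFP-hi and 10.8, 9.60 and 9.35 RPKM in GFP-lo libraries, a fold change of 0.02. Tsc1, its stabilizing partner, had a mean of 4.33 RPKM and a fold change of -0.06. Pik3ip1 encodes a membrane protein that inhibits PI3K and is abundant in resting T cells. It had 36.6, 33.6 and 33.8 RPKM in GFP-hi and 35.0, 33.4 and 33.0 RPKM in GFP-lo libraries, with a fold change of 0.03 (95% interval -0.10 to 0.16). Deptor, which encodes an mTOR-binding inhibitor, had 0.203, 0.137 and 0.231 RPKM in GFP-hi and 0.082, 0.188 and 0.329 RPKM in GFP-lo libraries. It fell under the filter and was not tested.

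Autophagy genes followed the same pattern of small differences. Of 22 tested genes 11 had a positive fold change (50%, beside 55.5% of all genes tested) and 1 passed the threshold (4.55%, beside 3.95%). Groups did not overlap for 4 genes (18.2%, beside 26.9%), and 5 had an unadjusted p under 0.05 in limma (22.7%, beside 20.2%). The median fold change was 0.0016, beside 0.018. Ulk1, the kinase that starts autophagy, had 6.90, 6.13 and 6.53 RPKM in GFP-hi and 7.63, 6.89 and 5.78 RPKM in GFP-lo libraries, a fold change of -0.04. Its relative Ulk2 was higher in level in every library, with 16.5, 14.8 and 15.2 RPKM in GFP-hi and 16.9, 13.9 and 14.4 RPKM in GFP-lo. Atg13, a regulatory subunit of the ULK complex, had a mean of 14.6 RPKM, much like Ulk2, and a fold change of -0.02.

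The class III PI3K complex makes the lipid that marks the forming membrane. Becn1, its Beclin subunit, had 16.1, 17.9 and 16.3 RPKM in GFP-hi and 19.2, 16.2 and 16.7 RPKM in GFP-lo libraries, a fold change of -0.05. Pik3c3, the catalytic subunit, had a mean of 16.7 RPKM and a fold change of -0.06 (95% interval -0.17 to 0.06). Wipi2, which binds that lipid, had 14.2, 13.1 and 13.6 RPKM in GFP-hi and 15.7, 13.7 and 13.3 RPKM in GFP-lo libraries. These 3 genes showed overlapping groups.

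Atg9a encodes a membrane protein whose vesicles seed the autophagosome. It had 4.32, 3.88 and 4.10 RPKM in GFP-hi and 3.28, 3.50 and 3.57 RPKM in GFP-lo libraries. The groups did not overlap, and the fold change of 0.20 (standard error 0.065) missed the threshold (limma adjusted p = 0.15). Genes of the machinery that attaches LC3 and GABARAP to lipid were level, with fold changes from -0.07 (Atg16l1) to 0.07 (Atg3) over 5 genes. Atg3 was the most abundant of these, with 28.0, 32.1 and 29.6 RPKM in GFP-hi and 27.3, 28.5 and 29.2 RPKM in GFP-lo libraries. Atg5 followed at a mean of 23.8 RPKM, then Atg12 (10.1 RPKM), Atg16l1 (7.06 RPKM) and Atg7 (6.63 RPKM).

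In the LC3 and GABARAP family 4 of 5 genes had a positive fold change and none passed the threshold in limma, with 2 at an unadjusted p under 0.05. Over all genes tested 55.5% had a positive fold change and 20.2% an unadjusted p under 0.05. Gabarapl1 had the largest fold change of all 53 genes, 0.53 ± 0.133 (SE; limma adjusted p = 0.070). It had 3.46, 2.14 and 3.38 RPKM in GFP-hi and 1.79, 1.76 and 1.61 RPKM in GFP-lo libraries, so the groups did not overlap. GFP-hi replicate 2 lay nearest to the GFP-lo libraries. Without it the fold change was 0.70 and passed the threshold (limma adjusted p = 0.0049), but leaving out the nearest library must widen the difference. Without any 1 of the other libraries the fold change was 0.45 to 0.55 and did not pass (limma adjusted p from 0.15 to 0.20). Gabarapl1 also passed in the 4 libraries with lower heat-shock genes (0.71, limma adjusted p = 0.030) and in the 4 with more nasal receptor reads (0.72, limma adjusted p = 0.0098). Both of these sets leave out GFP-hi replicate 2. With array quality weights Gabarapl1 passed too (0.67, limma adjusted p = 0.0018), in a fit that called 13.7% of all genes tested.

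Gabarapl1 was also the least abundant of its family. Gabarap had 26.1, 31.9 and 28.6 RPKM in GFP-hi and 23.8, 28.1 and 27.0 RPKM in GFP-lo libraries, a fold change of 0.13. Map1lc3b, the LC3 gene most used as a marker of autophagy, had 27.0, 32.1 and 25.0 RPKM in GFP-hi and 28.3, 25.6 and 23.6 RPKM in GFP-lo libraries, a fold change of 0.11. Gabarapl2 had a mean of 25.6 RPKM and a fold change of 0.19 (limma adjusted p = 0.25), and Map1lc3a a mean of 4.80 RPKM and a fold change of -0.08. Gabarap, Map1lc3b and Gabarapl2 were at levels that did not differ beyond their spread. Members of this family are alike in sequence and the counting rule is not given, so some reads could have been assigned to the wrong copy.

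Sqstm1 encodes the cargo receptor p62, itself degraded by autophagy. It had 51.8, 54.9 and 49.5 RPKM in GFP-hi and 57.7, 53.0 and 52.7 RPKM in GFP-lo libraries, a fold change of -0.06 (95% interval -0.21 to 0.08). The lysosomal transcription factor Tfeb had 2.88, 2.73 and 2.86 RPKM in GFP-hi and 3.15, 2.40 and 2.51 RPKM in GFP-lo libraries, with GFP-hi values inside the GFP-lo range. Its relative Tfe3 had 1.67, 1.63 and 1.76 RPKM in GFP-hi and 2.08, 1.96 and 2.0 RPKM in GFP-lo libraries. All GFP-hi libraries were lower for Tfe3, and the fold change of -0.17 (standard error 0.066) did not pass the threshold (limma adjusted p = 0.22).

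The 2 lysosomal membrane genes differed from each other in level and in fold change. Lamp1 and Lamp2 encode the main glycoproteins of that membrane, and LAMP2 also takes part in fusion with autophagosomes and in chaperone-mediated autophagy. Lamp1 had 65.3, 75.9 and 64.2 RPKM in GFP-hi and 67.8, 71.6 and 70.6 RPKM in GFP-lo libraries, a fold change of -0.03 (limma adjusted p = 0.84). Lamp2 (Entrez 16784, chromosome X, 38399647 to 38456460, GRCm38) had 5.46, 5.52 and 5.22 RPKM in GFP-hi and 4.39, 4.29 and 4.17 RPKM in GFP-lo libraries. The Lamp2 groups were well apart, with means of 5.40 ± 0.160 and 4.28 ± 0.111 RPKM (SD, n = 3 each). The fold change was 0.28 ± 0.057 (SE; limma adjusted p = 0.039), or 21.1% higher in GFP-hi on the RPKM + 1 scale.

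The Lamp2 call was fragile. It was lost in each of the 6 fits without a library, with limma adjusted p values from 0.069 to 0.14 and fold changes from 0.26 to 0.30. Calls over all genes tested also fell in those fits, from 369 to between 133 and 315, so lost calls were not particular to Lamp2. The Lamp2 call was also lost with trimmed mean of M values scaling (limma adjusted p = 0.051), in the 4 libraries with lower heat-shock genes (0.17) and in the 4 with more nasal receptor reads (0.062). Calls over all genes were 354, 101 and 422 there, in that order. The fold changes there, 0.26, 0.26 and 0.28, were about as large as with all libraries. The log2 ratio of Lamp2 to Lamp1 within a library was -3.36, -3.56 and -3.39 in GFP-hi and -3.67, -3.78 and -3.79 in GFP-lo libraries. All 3 GFP-hi libraries were higher, by 0.31 on average. The pair was chosen after both genes' values were seen, so the ratio restates them. An exact permutation over the 6 libraries again gave p = 0.1, the smallest possible, and cannot decide. In bulk RNA, fewer cells that express a gene and less RNA per cell cannot be told apart, here and for Pik3r5.

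The sequence before the start of the called genes and of Lamp1 is shown because TFEB and TFE3, both in this set, are known to bind the palindrome CACGTG in promoters of lysosomal genes. Promoters were taken from RefSeq (GRCm38.p6), which matched 47 of the 54 genes with 60 start sites, and the 250 bases before each start were searched for CACGTG and, on both strands, for GTAAACA, a motif of FOXO factors. The 2 motifs did not overlap. CACGTG was found before 6 of the 60 start sites (10%), beside 6.02% of all 32851 promoters in the table. It occurred 4 times for Lamp1, starting 61, 45, 28 and 15 bases before the start, in 2 places for Atg3 and once each for Atg5, Atg7, Rheb and Rragc. GTAAACA was found before 2 of the 60 start sites (3.33%), of Akt1 and Pik3cg, beside 3.17% of all promoters. Neither motif was in the window of Lamp2 or Pik3r5. Capitals mark CACGTG. Lamp1 lies at chr8:13158911-13159160 on the plus strand, Lamp2 at chrX:38456461-38456710 on the minus strand and Pik3r5 at chr11:68431875-68432124 on the plus strand, each printed 5′ to 3′.
Lamp1: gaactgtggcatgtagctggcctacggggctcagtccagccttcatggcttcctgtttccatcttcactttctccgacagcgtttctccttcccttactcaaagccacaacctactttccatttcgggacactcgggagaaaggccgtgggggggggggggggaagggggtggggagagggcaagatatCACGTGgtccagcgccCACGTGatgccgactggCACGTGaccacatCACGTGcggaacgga
Lamp2: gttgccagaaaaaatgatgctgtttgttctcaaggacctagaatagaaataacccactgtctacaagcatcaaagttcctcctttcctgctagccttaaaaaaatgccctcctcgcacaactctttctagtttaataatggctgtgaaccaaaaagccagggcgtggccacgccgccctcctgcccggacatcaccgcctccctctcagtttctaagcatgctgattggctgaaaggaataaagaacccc
Pik3r5: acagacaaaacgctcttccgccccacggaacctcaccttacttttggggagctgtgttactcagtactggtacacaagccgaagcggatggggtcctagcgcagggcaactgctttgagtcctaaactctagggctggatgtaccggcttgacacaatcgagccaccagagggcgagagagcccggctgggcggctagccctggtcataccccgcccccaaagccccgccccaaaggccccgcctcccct
A match is a run of letters and not a measured binding site. Of the 6 genes with CACGTG none passed the threshold in limma, with fold changes from -0.03 to 0.10.

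Growth signalling was then set against autophagy. Each tested gene's log2(RPKM + 1) was taken as a deviation from its mean over the 6 libraries, and deviations were averaged over each group of genes. The growth genes averaged 0.015, -0.052 and 0.0012 in GFP-hi and 0.017, -0.0073 and 0.026 in GFP-lo libraries. The autophagy genes averaged 0.024, 0.054 and -0.0096 in GFP-hi and 0.017, -0.023 and -0.063 in GFP-lo libraries. Both sets of values overlapped between the groups. Growth minus autophagy was -0.0089, -0.11 and 0.011 in GFP-hi and -9.3e-05, 0.015 and 0.089 in GFP-lo libraries. The 2 extremes were GFP-hi replicate 2 and GFP-lo replicate 3, and the other 4 libraries lay between -0.0089 and 0.015, GFP-hi and GFP-lo values interleaved. Growth minus autophagy averaged -0.035 ± 0.062 in GFP-hi and 0.035 ± 0.047 in GFP-lo (SD, n = 3 each), a difference of -0.069. The difference of GFP-hi minus GFP-lo was -0.0235 for growth and 0.046 for autophagy. No p is given, since the genes were chosen with results of these data known. The median fold change was -0.0055 for growth, 0.039 for brakes and 0.0016 for autophagy, beside 0.018 for all genes tested.

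**Figure D4:**
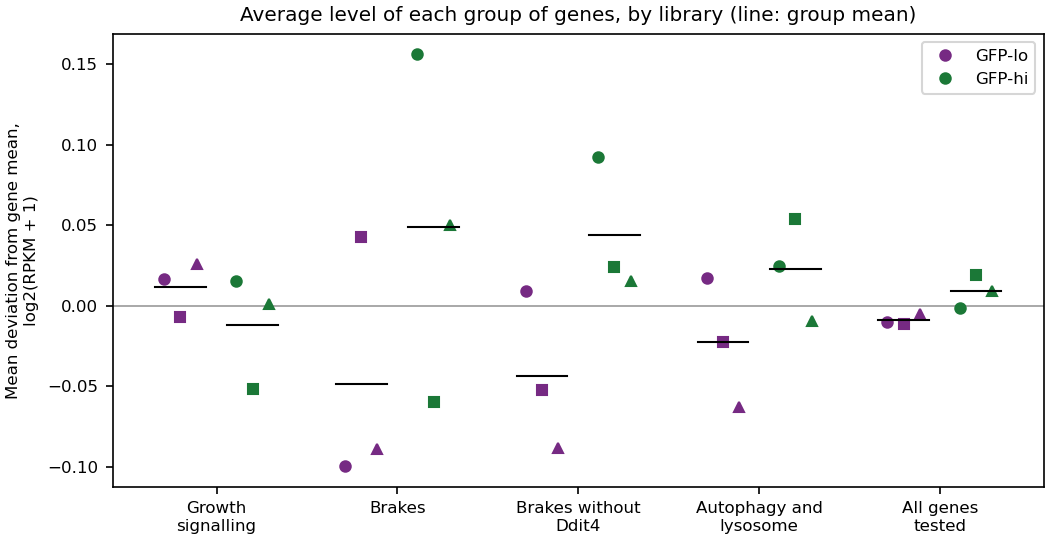
Mean deviation of each set of tested genes from the genes' own means over the 6 libraries (vertical axis, log2(RPKM + 1)), by library, GFP-lo in purple and GFP-hi in green; circles, squares and triangles are replicates 1, 2 and 3, and lines are group means. Growth and autophagy values overlap between the groups, and the brakes spread more widely with Ddit4 than without it.

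The brakes averaged 0.16, -0.060 and 0.050 in GFP-hi and -0.10, 0.043 and -0.089 in GFP-lo libraries, with overlapping groups. Without Ddit4, a choice made after its spread was seen, they averaged 0.092, 0.024 and 0.015 in GFP-hi and 0.0091, -0.052 and -0.088 in GFP-lo libraries. The 3 GFP-hi values then lay above the GFP-lo values, by 0.088 on average. The average over all genes tested separated the groups in the same direction, by 0.018, which is smaller than 0.088. It was -0.0013, 0.019 and 0.0089 in GFP-hi and -0.0099, -0.011 and -0.0052 in GFP-lo libraries. A separation was thus not seen in the brakes alone, though its size differed, and the growth and autophagy averages overlapped. Whether a shift over all genes has a part in the brake values was not tested.

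Fold changes were related to gene length. Spearman's rho between log2 fold change and exon length was -0.202 over the 9246 tested genes with a length and -0.205 over the 53 genes of this set, as a description across genes that share libraries. Gabarapl1 and Gabarapl2, with fold changes of 0.53 and 0.19, have 2013 and 2325 bases of exon. Other genes went against the trend: Map1lc3a, with 1181 bases, had -0.08, and Lamp2, with 9552 bases, had 0.28. Whether length has a part in the values of any of these genes was not tested.

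Other genes of these pathways were taken from lists written by role. Of 20 further PI3K genes tested, 35 of mTOR complexes and nutrient sensing and 39 of autophagy, none passed the threshold in limma. At an unadjusted p under 0.05 there were 5 higher and 5 lower among the 94 genes (10.6%), beside 20.2% of all genes tested. Groups did not overlap for 17 of the 94 (18.1%), 12 higher and 5 lower, beside the 26.9% given above. Their median fold changes were 0.02, 0.05 and -0.0067.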

How the data were processed

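Per the file headers, the authors deposited 1 column of RPKM for each of the 6 libraries, and all 6 columns were used. Per the labels' protocols, sorted cells were lysed, RNA was column-purified, cDNA was made with SMART-seq v4 and libraries with Nextera XT. STAR and mm10 are named in the submitters' processing notes, whereas the counter, the annotation and the rule for listing genes are not given in the sources used here. Each column carries the title of 1 sample, and the phenotype label gave its group. Replicates were numbered in record order, and these numbers were not used to pair samples.

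Genes with a mean of at least 1 RPKM (9351) were tested with limma 3.58.1 (R 4.3.3) on log2(RPKM + 1), with eBayes and a mean-variance trend, no covariate, two-sided, with Benjamini-Hochberg adjustment over all of them and a threshold of 0.05. On simulated data of 9351 genes with 200 changed by 1 on the log2 scale, 95.2% of the changes were recovered and 4.02% of calls were false. Noise was drawn for each gene separately, and a change of 1 is larger than any in this set (-0.41 to 0.53). These runs thus give no recovery rate for differences of the size described here. Depth was sought as the library size at which RPKM times transcript length came closest to whole reads, over 727 genes for which GENCODE M21 has a single transcript; 78.9% to 88.9% of the 19 to 72 low values per library then lay within 0.1 of a whole read.

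Genes are given with values in every library if they passed the threshold, had groups that did not overlap, were the most abundant of their role, or were named in the rule (Mtor, Pik3cd, Akt1, Ulk1, Becn1, Map1lc3b and Tfeb); 1 other gene of the rule is not reported here. Members and lists were chosen with earlier results of these data known. Trimmed mean of M values factors were computed from the RPKM. Figures were drawn with matplotlib 3.10.9.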

Additional observations from a re-analysis of the deposited data

How the results depend on the processing

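The 18 alternatives changed the pseudocount, the filter, the scaling, the variance model or the libraries used. Lamp2 was the 1 gene called higher; it stayed below the filter at a mean RPKM of at least 5, which left 0 genes called higher, as did trimmed mean of M values scaling. Array quality weights called 5 higher and 2 lower, adding Akt2, Atg9a, Gabarapl1, Castor2 and Pik3cb, while calling 1282 of all genes. Quantile normalization called 2 lower, Pik3r5 and Pik3cb. In the 4 libraries with lower heat-shock genes 0 genes were called lower. Leaving out 1 library gave 0 to 1 genes higher, the 1 being Gabarapl1 without GFP-hi replicate 2, and 0 to 1 lower, always Pik3r5 where there was 1. The median fold change of the brakes was 0.094 with array quality weights, 0.084 in the 4 libraries with lower heat-shock genes, 0.14 in the 4 with more nasal receptor reads, and -0.000995 (without GFP-hi replicate 1) to 0.095 (without GFP-hi replicate 2) when 1 library was left out. The medians of growth and autophagy moved by less than the spread between replicates in all 18. For the other shifts the cause was not tested. Of the 53 tested genes 21 kept the sign of their fold change in every alternative, and the other 32, none of them called in any alternative, changed it in at least 1. No paired analysis was run, because the labels carry no replicate numbers and tie no GFP-hi library to a GFP-lo library. Some genes did go with record order. Hspa1a was high in replicate 2 of both groups, as given above. Ccr7 was high in replicate 1 of both, at 429 RPKM (GFP-hi) and 516 RPKM (GFP-lo) against 233 to 264 RPKM elsewhere. The nasal receptor level did not, being low in GFP-hi replicate 2 and GFP-lo replicate 1. How pairing by record order would change standard errors and calls was not tested. Whether libraries next to each other in record order shared handling was not tested.

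With 3 libraries a group the median interval reaches 0.18 on the log2 scale to either side, so most smaller differences were not resolved. RPKM are relative to the other RNA of a library, and transcripts say nothing of the phosphorylation through which this pathway acts. Deptor was under the filter and was not tested.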

Other observations

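Genes outside the set that stand next to it in function were read from the same limma fit. Of 41 tested genes of lysosomal hydrolases and of the proton pump, 1 rose and 1 fell: Glb1, the gene of beta-galactosidase, at 20.7 ± 0.912 RPKM in the GFP-hi group against 16.7 ± 0.438 RPKM in the other (SD, n = 3 each, log2 fold change 0.30, limma adjusted p = 0.027), and Gaa, the gene of acid alpha-glucosidase, at 10.9 ± 0.252 and 15.5 ± 2.22 RPKM (-0.47, limma adjusted p = 0.032). Gaa had 18.0 RPKM in GFP-lo replicate 1 against 14.3 and 14.2 RPKM in the other GFP-lo libraries, and all 3 GFP-hi libraries lay between 10.6 and 11.1 RPKM. Groups did not overlap for 13 genes of this list that were higher in GFP-hi (31.7%, beside 17.1% of all genes tested) and for 3 that were lower (7.32%, beside 9.84%). The 1 gene called in each direction is 2.44% of the list, beside 2.46% of all genes called higher and 1.49% called lower. At an unadjusted p under 0.05 in limma there were 12 higher and 3 lower genes (36.6%, beside 20.2% of all genes tested). Whether gene length has a part in the values of this list was not tested. The median fold change of the list was 0.05, beside 0.02 for all genes tested.

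FOXO factors are switched off by AKT, and 12 known FOXO-linked genes of naive T cells were tested. Il7r, a chain of the interleukin 7 receptor, fell (log2 fold change -0.80, limma adjusted p = 0.0022; 8.33% of the list, beside 1.49% of all genes tested) and none rose. The median was -0.08, with 4 of 12 fold changes positive (33.3%, beside 55.5%). Foxo1 itself measured 55.02, 56.5 and 53.1 RPKM in the GFP-hi libraries, beside 51.01, 49.4 and 48.8 RPKM in the GFP-lo ones (0.14, limma adjusted p = 0.18), with groups that did not overlap. Of 19 tested targets of ATF4, a stress factor that also induces Sesn2 and Ddit4, Psat1 of serine synthesis rose (5.70 ± 0.284 against 4.45 ± 0.210 RPKM, SD, n = 3 each, log2 fold change 0.30, limma adjusted p = 0.044; 5.26% of the list, beside 2.46%) and none fell.

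Of 26 tested genes of dissociation and heat shock, 6 had a positive fold change (23.1%, beside 55.5% of all genes tested) and 1, Socs3, fell (3.85%, beside 1.49%). The list had a median of -0.22. Of 21 tested cell cycle genes 14 rose (66.7%, beside 2.46%) and none fell, with a median of 0.55. Whether handling or cycling cells have a part in the values of the pathway genes was not tested.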
